A study of Mus musculus with 6 samples.

Results

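Expression of 10 p53 target and growth arrest genes was examined in ischemic skeletal muscle of mice lacking GPR174, a G protein-coupled receptor encoded on the X chromosome. The genes were taken by name from a list of p53 targets, cyclin-dependent kinase (CDK) inhibitors and Gadd45 genes: *Cdkn1a*, *Cdkn1c*, *Cdkn2a*, *Mdm2*, *Gadd45a*, *Gadd45b*, *Gadd45g*, *Ccng1*, *Bax* and *Trp53inp1*. These genes, and the gene lists set beside them below, were chosen with earlier results of these data known. All 10 were present among the 18089 genes of the expression table, and all 10 passed the filter on low counts that kept 14395 genes for testing.

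RNA-seq had been performed on the ischemic gastrocnemius of 3 WT and 3 *Gpr174-/Y* mice (labelled GPR174-KO), 7 days after hindlimb ischemia (HLI). All animals were male C57BL/6 mice 8 to 10 weeks old, and in all of them the left femoral artery had been tied and the segment between the ties removed. The knockout was global, so that receptor loss was not limited to one cell type, and the controls were described as littermates. There was no uninjured muscle among the samples, so each value describes injured tissue.

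p53 is a transcription factor that is stabilized by DNA damage, oncogene activity and other stress, and it switches on genes that stop the cell cycle, repair DNA or trigger apoptosis. One of its targets, *Mdm2*, encodes the ubiquitin ligase that removes p53 again, and another, *Cdkn1a*, encodes p21, which blocks the CDKs that drive cells into DNA replication. In skeletal muscle, p21 and the related inhibitor p57, the product of *Cdkn1c*, also hold differentiating myoblasts out of the cell cycle, and the Gadd45 proteins are small stress-induced partners of cell cycle and kinase signalling proteins.

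Values are given as CPM, reads of a gene per 1000000 reads, scaled by edgeR's TMM factors, which set the libraries against the bulk of genes. Total counts were 18417077 to 18695013 in WT libraries and 19173036 to 19394469 in *Gpr174-/Y* libraries, where 3 counts, the smallest number taken as detected, correspond to 0.155 to 0.163 CPM (counting error only). Reads of the disrupted gene, *Gpr174*, numbered 8, 2 and 5 in the WT libraries and 1, 0 and 0 in the *Gpr174-/Y* libraries. Genes of mature muscle fibres took 15.0 to 19.7% of counts in WT libraries and 7.78 to 8.42% in *Gpr174-/Y* libraries, and 18 of 18 such genes passed the test as lower. In both groups the replicate numbered 2 took the middle place in 77.1% (WT) and 68.2% (*Gpr174-/Y*) of 9972 abundant genes, where equally likely places would give 33.3%, and among the 10 genes in 7 (WT) and 10 (*Gpr174-/Y*). The methods give 3 mice per group, and whether the libraries are independent animals was not tested, so every SD, interval and p-value below takes it as given. In bulk tissue, fewer cells of a type and less RNA per cell cannot be told apart.

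Of the 10 genes, *Cdkn1a*, *Gadd45b*, *Bax* and *Gadd45g* were higher and *Ccng1* was lower in *Gpr174-/Y* muscle at an adjusted p of 0.05 (edgeR quasi-likelihood test, adjusted over all tested genes), while *Cdkn1c*, *Cdkn2a*, *Mdm2*, *Gadd45a* and *Trp53inp1* did not pass. This count of 5 in 10 stands beside 54.6% of all tested genes, 27.0% higher and 27.6% lower, so the number of calls did not set the list apart from other genes. With an absolute log2 fold change above 1 as a further condition, *Ccng1* alone remained, 1 of 10 against 8.28% of all tested genes (3.45% higher and 4.84% lower). In 7 of the 10 genes the groups did not overlap, 5 with every *Gpr174-/Y* library above every WT library and 2 below, against 65.6% of all tested genes (33.1% above and 32.4% below). The median log2 fold change was 0.19 over the 10 genes and 0.00 over all tested genes. A 2-sided exact permutation test of a single gene can reach no lower than p = 0.1 with 3 samples against 3, so calls rest on the spread that edgeR estimated across genes, and p-values measure only the spread between these samples.

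Calls were fewer in some fits with fewer libraries. With replicates 1 and 3 of each group alone, no gene of the whole table passed in edgeR (lowest adjusted p = 0.0542, with 5026 genes at an unadjusted p under 0.05), and the adjusted p was 0.0806 for *Cdkn1a*, 0.0701 for *Gadd45b* and 0.0754 for *Ccng1*, at log2 fold changes of 0.94, 0.91 and -1.04. When single libraries were left out, *Cdkn1a*, *Gadd45b* and *Ccng1* passed each time, whereas *Bax* and *Gadd45g* missed the threshold without WT replicate 2 (edgeR adjusted p = 0.0513 and 0.0722), without *Gpr174-/Y* replicate 1 (0.0553 and 0.0572) and without *Gpr174-/Y* replicate 2 (0.0513 and 0.0547). Their log2 fold changes there, 0.37 to 0.42 for *Bax* and 0.19 to 0.25 for *Gadd45g*, were about as large as with all libraries (0.42 and 0.23). Past the fold threshold none of the 10 remained without WT replicate 1 and 3 did without WT replicate 3, *Ccng1*, *Cdkn1a* and *Gadd45b*. The share of all tested genes past it moved the same way, to 6.34% without WT replicate 1 and 12.5% without WT replicate 3, against 8.28% with all libraries.

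**Figure D1:**
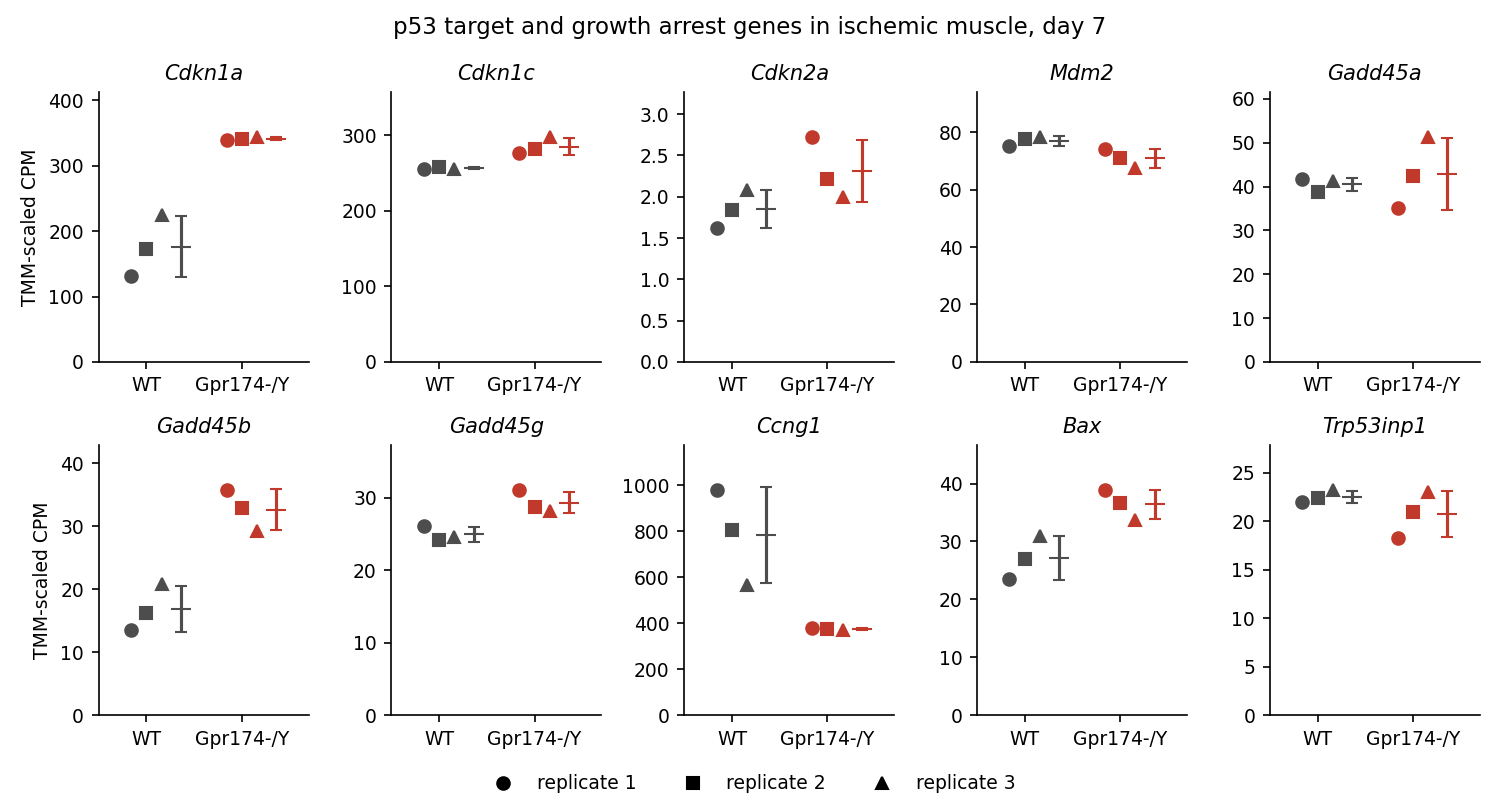
TMM-scaled CPM of each of the 10 genes in the 3 WT and 3 *Gpr174-/Y* libraries (1 symbol per replicate) with the mean and SD of each group beside them (bars), on an axis of its own for each gene. *Cdkn1a* sits at 131 to 224 CPM in WT and 339.5 to 344 CPM in *Gpr174-/Y* libraries, and *Ccng1* shows the opposite order, at 565 to 979 and 372 to 381 CPM.

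*Cdkn1a* encodes p21, the best known cell cycle inhibitor among p53 targets. It measured 131, 173 and 224 CPM in WT replicates 1, 2 and 3 and 339.5, 341 and 344 CPM in *Gpr174-/Y* replicates 1, 2 and 3. The groups did not overlap, and the WT libraries were spread over a 1.71-fold range whereas the *Gpr174-/Y* libraries differed by at most 1.01-fold. Mean levels were 176 ± 46.6 and 342 ± 2.35 CPM (SD, n = 3 each), a 1.94-fold difference and a log2 fold change of 0.95 (standard error 0.18, 95% interval 0.53 to 1.38, edgeR adjusted p = 0.00475). Of all tested genes, 95.9% had a lower log2 fold change.

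The gene has a pair of annotated starts 2790 bases apart. The upstream sequences of both are shown because p53 half-sites were found within 250 bases before one and not the other. Sequences are from RefSeq (GRCm38.p6), read along the gene from 250 bases before a start up to the base before it, and capitals mark matches to the p53 half-site, the 10-base consensus of which a full p53 site holds a pair.

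Cdkn1a distal start, chr17:29090729-29090978, + strand: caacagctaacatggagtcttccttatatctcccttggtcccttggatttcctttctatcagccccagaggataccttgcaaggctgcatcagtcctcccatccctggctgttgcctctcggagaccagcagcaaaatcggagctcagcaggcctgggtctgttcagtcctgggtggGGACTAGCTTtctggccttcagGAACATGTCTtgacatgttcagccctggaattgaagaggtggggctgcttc
Cdkn1a proximal start, chr17:29093519-29093768, + strand: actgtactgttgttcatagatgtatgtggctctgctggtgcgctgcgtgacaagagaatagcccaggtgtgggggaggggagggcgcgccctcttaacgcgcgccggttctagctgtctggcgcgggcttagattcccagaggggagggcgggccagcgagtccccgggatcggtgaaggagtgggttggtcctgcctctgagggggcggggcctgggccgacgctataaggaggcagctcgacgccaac

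The distal sequence held 2 half-sites, at positions -73 to -64 and -51 to -42 from the start, and the 10 bases next to the second of them matched the consensus at 9 of 10 positions. The proximal sequence held none. The half-sites near the distal start also lie upstream of the proximal start, more than 2790 bases before it and so outside the 250 bases shown. The half-site, searched on both strands, occurred in 8.36% of 32851 RefSeq windows reaching from 250 bases before to 50 bases after a start, and in 5 of the 10 such windows found for 8 of the genes (*Cdkn1c* and *Trp53inp1* had no window). A half-site beside 10 bases that matched at 9 or more positions occurred in 29 windows, 0.0883% of all, among them those of *Cdkn1a* and *Ccng1*. These genes were listed because they are p53 targets, so the matches describe the sequences and do not test anything about p53 in this tissue.

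Of the *Cdkn1a* reads, nearly all were assigned to the proximal transcript. The distal transcript, whose start lies next to the half-sites, was listed at 0 in each WT library and at 49.01, 48.43 and 27.27 estimated reads in *Gpr174-/Y* replicates 1, 2 and 3, which is 0.69, 0.67 and 0.37% of the gene. It was thus seen in the *Gpr174-/Y* libraries alone, as a very small part of the gene's reads. Both transcripts share most of their exons, and the split is an estimate of the authors' software, so no test was applied.

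*Cdkn1c* encodes p57, the CDK inhibitor of the same family as p21. Its values were 255.5, 259 and 256 CPM in WT replicates 1, 2 and 3 and 276, 282 and 298 CPM in *Gpr174-/Y* replicates 1, 2 and 3. In WT muscle the libraries were almost identical and lay below all *Gpr174-/Y* libraries, but the log2 fold change was only 0.15 (standard error 0.06, 95% interval 0.02 to 0.29) and the gene missed the threshold (edgeR adjusted p = 0.0566). It was on either side of that threshold in the alternatives, passing in 6 of 16. The table splits it into 8 transcripts, of which the main one took 56.94 to 60.12% of its reads in every library.

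*Cdkn2a* encodes 2 unrelated proteins from separate first exons, p16Ink4a, an inhibitor of CDK4 and CDK6, and p19Arf, which binds Mdm2 and so spares p53. Over both, the gene had 26, 31 and 37 counts (1.62, 1.85 and 2.08 CPM) in WT replicates 1, 2 and 3 and 57, 47 and 43 counts (2.72, 2.21 and 2.0 CPM) in *Gpr174-/Y* replicates 1, 2 and 3. The groups overlapped and the log2 fold change of 0.32 (95% interval -0.10 to 0.74) did not pass (edgeR adjusted p = 0.165). It passed in 3 of 16 alternatives, on total counts (log2 fold change 0.59, edgeR adjusted p = 0.0261) and in limma on log2(TPM + 1) and log2(TPM + 0.1) (0.55 and 0.65).

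Split by transcript, p19Arf was assigned 9.50, 17.30 and 9.08 reads in WT libraries and 40.68, 33.79 and 27.99 reads in *Gpr174-/Y* libraries, in replicate order. p16Ink4a was assigned 16.50, 13.70 and 27.92 reads in WT and 16.32, 13.21 and 15.01 reads in *Gpr174-/Y* libraries. The p19Arf values, not scaled for depth, did not overlap between groups and the p16Ink4a values did. On scaled CPM the groups did not overlap in 65.6% of all tested genes (33.1% with *Gpr174-/Y* above), and the share among transcripts was not computed. Of the gene's reads, p19Arf made up 24.54 to 55.81% in WT and 65.09 to 71.89% in *Gpr174-/Y* libraries. The transcripts share their later exons and each number is an estimate from at most 57 reads of the gene, so the split is described and not tested.

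**Figure D2:**
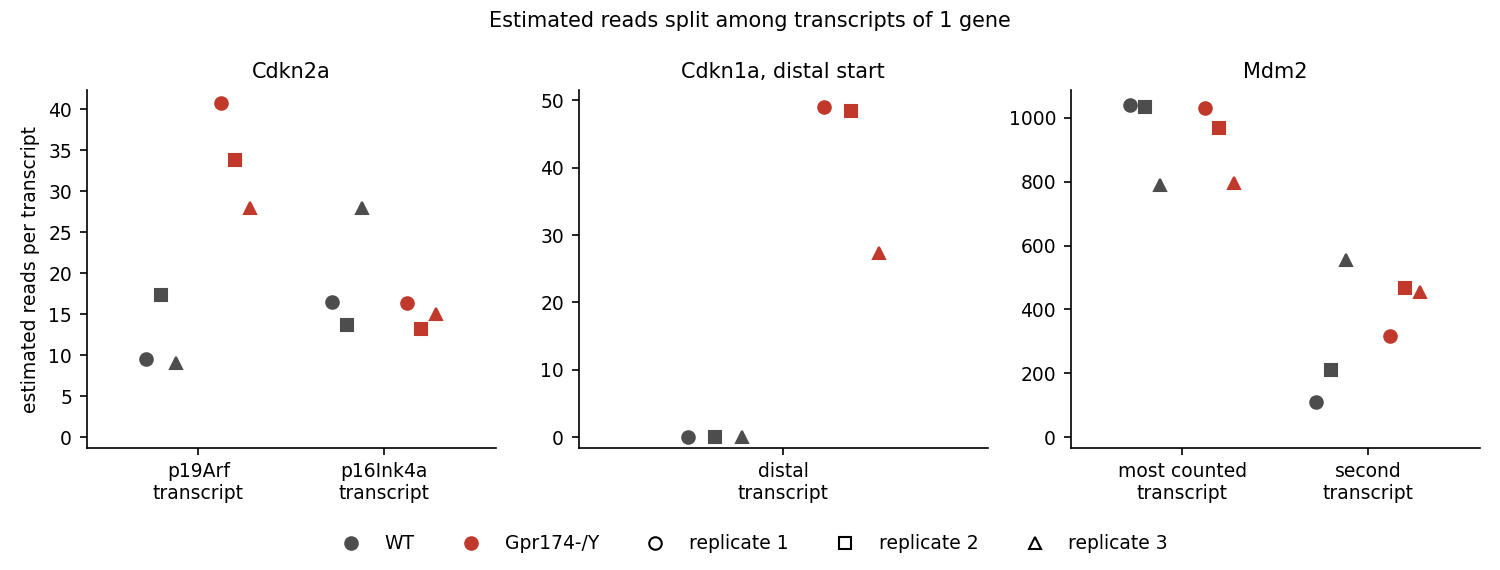
Estimated reads, not scaled for depth, assigned to single transcripts of *Cdkn2a*, *Cdkn1a* and *Mdm2* in each of the 6 libraries (1 symbol per replicate). The p19Arf transcript of *Cdkn2a* spans 9.08 to 17.30 reads in WT and 27.99 to 40.68 reads in *Gpr174-/Y* libraries, and the distal *Cdkn1a* transcript is listed at 0 in the 3 WT libraries.

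*Mdm2* closes the feedback loop on p53. It measured 75.1, 77.6 and 78.3 CPM in WT replicates 1, 2 and 3 and 74.2, 71.2 and 67.6 CPM in *Gpr174-/Y* replicates 1, 2 and 3. Every *Gpr174-/Y* library lay below every WT library, the nearest pair being 75.1 and 74.2 CPM, and the log2 fold change of -0.12 (standard error 0.05, 95% interval -0.24 to 0.01) did not pass (edgeR adjusted p = 0.0957). Its direction depended on scaling, since it was 0.15 on total counts, where it was not called. In limma on log2(TPM + 1) and log2(TPM + 0.1) it passed as higher (0.26 and 0.27, limma adjusted p = 0.0105 and 0.0107). Thus *Mdm2* and *Cdkn1a*, both textbook p53 targets, stood at log2 fold changes of -0.12 and 0.95 in the same libraries, with 95% intervals that did not meet (the difference between the genes was not itself tested).

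Among the 4 *Mdm2* transcripts, the most counted was assigned 1039.52, 1034.20 and 788.56 reads in WT replicates 1, 2 and 3 and 1029.79, 968.32 and 797.28 reads in *Gpr174-/Y* replicates 1, 2 and 3. The second was assigned 109.41, 211.33 and 554.85 reads in WT and 315.94, 467.38 and 454.69 reads in *Gpr174-/Y* libraries. Both overlapped between groups, and the second was spread more widely over the WT than over the *Gpr174-/Y* libraries.

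*Ccng1* encodes cyclin G1, a p53 target that recruits a phosphatase to Mdm2. It measured 979, 806 and 565 CPM in WT replicates 1, 2 and 3 and 381, 376 and 372 CPM in *Gpr174-/Y* replicates 1, 2 and 3. All *Gpr174-/Y* libraries lay below all WT libraries, and again the WT libraries were spread widely (1.73-fold) and the *Gpr174-/Y* libraries narrowly (1.02-fold). Means were 784 ± 208 and 377 ± 4.64 CPM (SD, n = 3 each), so that *Ccng1* was 2.08-fold lower in *Gpr174-/Y* muscle, with a log2 fold change of -1.06 (standard error 0.19, 95% interval -1.50 to -0.61, edgeR adjusted p = 0.00397). On total counts the log2 fold change was -0.77.

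The half-sites of *Ccng1*, *Mdm2* and *Bax* are shown with 20 bases on either side, because these 3 genes with p53 half-sites near their starts measured lower, not called and higher. Each stretch is from RefSeq (GRCm38.p6), read along the gene on the - strand, with the half-site in capitals.

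Ccng1, chr11:40755442-40755491: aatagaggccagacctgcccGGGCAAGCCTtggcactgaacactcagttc
Mdm2, chr10:117710915-117710964: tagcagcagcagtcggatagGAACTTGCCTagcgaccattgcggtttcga
Bax, chr7:45467070-45467119: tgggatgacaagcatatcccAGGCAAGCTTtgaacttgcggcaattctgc

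The half-site began at position -185 from the start of *Ccng1*, -186 from that of *Mdm2* and -201 from that of *Bax*. The adjacent 10 bases matched the consensus at 9 positions in *Ccng1*, 5 in *Mdm2* and 7 in *Bax*. *Cdkn1a* and *Ccng1*, both with 9 adjacent matches, lay at opposite ends of the list by log2 fold change.

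The opposite course of *Cdkn1a* and *Ccng1* can be read within each library, where scaling between libraries cancels. The ratio of *Cdkn1a* to *Ccng1* counts was 0.134, 0.215 and 0.397 in WT replicates 1, 2 and 3 and rose to 0.890, 0.906 and 0.925 in those of *Gpr174-/Y* mice. The pair was chosen after its values were seen, as the ends of the list with groups apart in opposite directions, so the gap between groups on this ratio followed from the choice. The ratio was spread widely over the WT libraries and little over the *Gpr174-/Y* libraries. The share of mature fibre genes fell as the ratio rose, from 19.7, 17.8 and 15.0% of counts in WT replicates 1, 2 and 3 to 8.42, 8.17 and 7.78% in *Gpr174-/Y* replicates 1, 2 and 3. Across the 6 libraries, *Cdkn1a* and *Gadd45b* were lowest and *Ccng1* highest in WT replicate 1, the library with the largest fibre share. Within *Gpr174-/Y* replicates 1, 2 and 3, *Gadd45b* ran the other way, at 35.7, 32.8 and 29.2 CPM as the fibre share fell. The part of the fibre share in these differences was not tested.

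**Figure D3:**
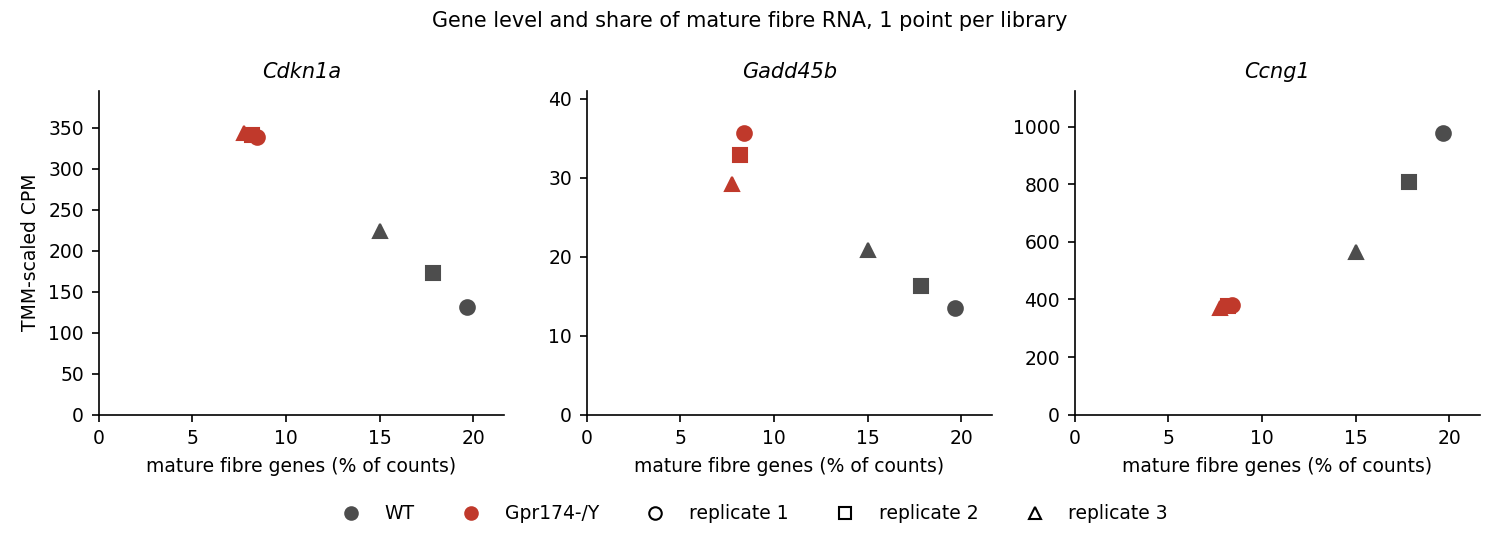
TMM-scaled CPM of *Cdkn1a*, *Gadd45b* and *Ccng1* in each library against the percentage of that library's counts from 18 mature muscle fibre genes, with one point per library. WT libraries lie at 15.0 to 19.7% and *Gpr174-/Y* libraries at 7.78 to 8.42%, with no library between 8.42 and 15.0%, and *Ccng1* is highest where the fibre share is highest.

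The 3 Gadd45 genes had unequal log2 fold changes. *Gadd45b*, the family member best known as an immediate response to cytokines and TGF-beta, measured 13.6, 16.2 and 20.8 CPM in WT replicates 1, 2 and 3 and 35.7, 32.8 and 29.2 CPM in *Gpr174-/Y* replicates 1, 2 and 3. The groups were clearly apart, with means of 16.9 ± 3.65 and 32.6 ± 3.25 CPM (SD, n = 3 each), a 1.93-fold difference and a log2 fold change of 0.95 (standard error 0.15, 95% interval 0.58 to 1.31, edgeR adjusted p = 0.00303). It had the lowest adjusted p of the 10 genes.

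*Gadd45g* measured 26.1, 24.1 and 24.6 CPM in WT replicates 1, 2 and 3 and 31.0, 28.7 and 28.2 CPM in *Gpr174-/Y* replicates 1, 2 and 3. It also rose without overlap but by much less, with a log2 fold change of 0.23 (standard error 0.06, 95% interval 0.09 to 0.38, edgeR adjusted p = 0.0176). DESeq2 did not call it (adjusted p = 0.0572).

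*Gadd45a*, the member under direct control of p53, measured 41.6, 38.9 and 41.2 CPM in WT replicates 1, 2 and 3 and 35.0, 42.4 and 51.3 CPM in *Gpr174-/Y* replicates 1, 2 and 3. WT libraries were close together, while *Gpr174-/Y* libraries spanned a 1.46-fold range on both sides of them. Its log2 fold change was 0.08 (95% interval -0.23 to 0.39, edgeR adjusted p = 0.625), and it turned to -0.066 without *Gpr174-/Y* replicate 3. The intervals of *Gadd45a* and *Gadd45b* did not meet, although the difference between the genes was not itself tested.

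The Gadd45 upstream sequences are shown because *Gadd45b* and *Gadd45g* were called higher and *Gadd45a* was not. They are from RefSeq (GRCm38.p6), read along each gene, and capitals mark the p53 half-site of *Gadd45a*, TATAAA in *Gadd45b* and *Gadd45g*, and in *Gadd45b* a match to GCGNGGGCG, the letters bound by EGR-type zinc fingers, which lies on the opposite strand.

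Gadd45a, chr6:67037418-67037467, - strand: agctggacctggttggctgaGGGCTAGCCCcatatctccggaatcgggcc
Gadd45b, chr10:80929841-80930090, + strand: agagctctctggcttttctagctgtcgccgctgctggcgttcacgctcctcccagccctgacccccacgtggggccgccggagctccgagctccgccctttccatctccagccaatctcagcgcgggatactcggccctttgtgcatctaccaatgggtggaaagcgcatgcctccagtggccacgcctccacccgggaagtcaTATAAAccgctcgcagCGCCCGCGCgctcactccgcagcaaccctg
Gadd45g, chr13:51846605-51846674, + strand: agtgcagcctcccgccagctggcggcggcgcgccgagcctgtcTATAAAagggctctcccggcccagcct

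The half-site of *Gadd45a* lay at positions -40 to -31 from the start. TATAAA lay at -46 to -41 in *Gadd45b* and -27 to -22 in *Gadd45g*, and occurred in 13.6% of all windows. GCGNGGGCG lay at -30 to -22 in *Gadd45b*, in none of the other 9 windows of the listed genes and in 5.55% of all windows, both strands counted. Upstream letters of this kind are common, and no reading of factor binding was made from them.

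*Bax* encodes the pore-forming protein that opens the outer mitochondrial membrane in apoptosis. Its values were 23.5, 27.0 and 31.0 CPM in WT replicates 1, 2 and 3 and 38.9, 36.6 and 33.7 CPM in *Gpr174-/Y* replicates 1, 2 and 3. All *Gpr174-/Y* libraries were above all WT libraries, with means of 27.1 ± 3.75 and 36.4 ± 2.57 CPM (SD, n = 3 each) and a log2 fold change of 0.42 (standard error 0.11, 95% interval 0.17 to 0.68, edgeR adjusted p = 0.0149). One of its 3 transcripts took 92.36 to 97.94% of reads in every library.

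*Trp53inp1* encodes a stress-induced partner of p53. Its values were 22.0, 22.4 and 23.2 CPM in WT replicates 1, 2 and 3 and 18.3, 21.0 and 23.1 CPM in *Gpr174-/Y* replicates 1, 2 and 3. The groups overlapped, and the log2 fold change of -0.12 (95% interval -0.33 to 0.10, edgeR adjusted p = 0.309) changed sign on total counts (0.16).

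**Figure D4:**
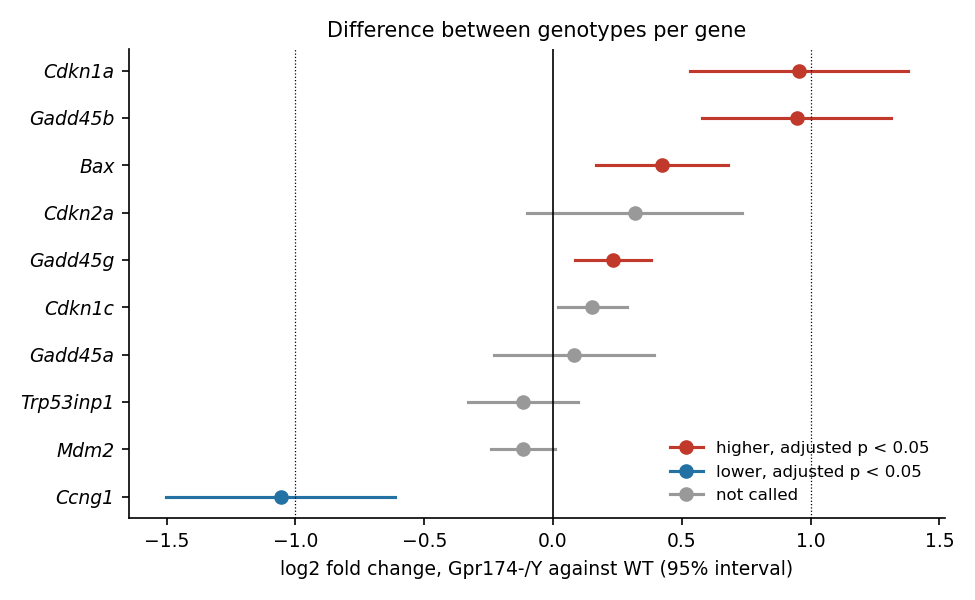
Log2 fold change (*Gpr174-/Y* over WT) of the 10 genes from edgeR with 95% intervals (lines), coloured where the adjusted p was under 0.05 and grey elsewhere, and dotted lines at the fold threshold. *Cdkn1a* and *Gadd45b* stand together at 0.95, *Ccng1* stands apart at -1.06, and the intervals of *Mdm2*, *Cdkn2a*, *Gadd45a* and *Trp53inp1* include 0.

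Levels were compared between genes on TPM, which scales each transcript for its length. In WT muscle *Ccng1* stood first (386 ± 84.9 TPM), ahead of *Cdkn1c* (234 ± 11.9 TPM) and *Cdkn1a* (163 ± 51.1 TPM), whereas in *Gpr174-/Y* muscle *Cdkn1a* stood first (411 ± 16.7 TPM), ahead of *Cdkn1c* (342 ± 25.5 TPM) and *Ccng1* (245 ± 5.30 TPM; SD, n = 3 for each). These 3 genes exchanged places with *Cdkn1c* between them, and their ranges did not overlap in either group. Below them, the other 7 genes had means of 3.83 to 59.0 TPM in WT and 6.04 to 99.3 TPM in *Gpr174-/Y* muscle, with *Trp53inp1* and *Cdkn2a* last in both. Neighbours whose ranges overlapped were *Gadd45a* and *Bax*, and *Mdm2* and *Gadd45g*, in WT, and each pair in the order *Bax*, *Gadd45a*, *Gadd45g*, *Gadd45b* in *Gpr174-/Y* muscle. TPM carries no TMM scaling, so these values give the order within a group and not the difference between groups.

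The rest of the p53 pathway was mixed. Of 37 further p53 pathway genes, chosen by name, 34 passed the filter (*Trp73*, *Perp* and *Rprm* did not), of which 11 rose, 8 fell and 15 were not called, with 2 past the fold threshold and a median log2 fold change of 0.02. The shares, 32.4% higher and 23.5% lower, were close to those of all tested genes, and on total counts 17 were called higher and 2 lower, where 50.7% of all tested genes were called higher and 14.0% lower. *Trp53*, the gene of p53 itself, was slightly higher, at 51.1, 54.0 and 59.3 CPM in WT and 67.8, 65.1 and 63.8 CPM in *Gpr174-/Y* replicates 1, 2 and 3 (log2 fold change 0.26, standard error 0.07, edgeR adjusted p = 0.0152).

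*Pmaip1*, which encodes the death-promoting BH3 protein Noxa, had 3.42, 5.42 and 8.60 CPM in WT and 19.5, 21.0 and 23.1 CPM in *Gpr174-/Y* replicates 1, 2 and 3, without overlap (log2 fold change 1.86, edgeR adjusted p = 0.0020). *Tigar*, which encodes a regulator of glycolysis, went the other way like *Ccng1*, from 55.1, 42.3 and 28.0 CPM in WT to 20.5, 21.2 and 19.2 CPM in *Gpr174-/Y* replicates 1, 2 and 3 (log2 fold change -1.04, edgeR adjusted p = 0.0082). By the same rule on size, the next increases were those of *Cd82* (log2 fold change 0.88), *Psrc1* (0.78) and *Dram1* (0.74), and the next decreases those of *Sfn* (-0.67), *Phlda3* (-0.57) and *Btg2* (-0.45). On total counts *Tigar* (-0.76) and *Phlda3* (-0.30) were called lower, and *Sfn* (-0.40) and *Btg2* (-0.18) were lower without a call. In limma on either TPM scale *Tigar* alone was called lower. *Pmaip1*, *Cd82*, *Psrc1* and *Dram1* were called higher on each of these scales.

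Among 20 genes of G1 control (cyclins, CDKs, pocket proteins, E2f factors and other CDK inhibitors), 8 rose, 2 fell and 10 were not called, 40% higher and 10% lower beside 27.0 and 27.6% of all tested genes, with none past the fold threshold and a median log2 fold change of 0.19. The genes that rose included the kinases *Cdk6* (log2 fold change 0.75) and *Cdk4* (0.45), cyclin E1 (*Ccne1*, 1.00) and *E2f1* (0.57), and those that fell were the pocket protein gene *Rbl2* (-0.25) and the inhibitor gene *Cdkn1b* (-0.23), which encodes p27. On total counts 15 rose and none fell, again beside 50.7 and 14.0% of all tested genes, with *Rbl2* at 0.02 and *Cdkn1b* at 0.04. Proliferation genes moved with *Cdkn1a*, since 12 of 12 rose on every scaling (median log2 fold change 0.74), and their summed level was 275 to 327 CPM in WT and 475 to 512 CPM in *Gpr174-/Y* libraries. The inhibitor gene *Cdkn1a* and the cell division genes were higher in the same *Gpr174-/Y* muscles, which in bulk RNA does not place them in the same cells.

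Of 15 other Bcl2 family genes, 13 passed the filter (*Bcl2a1a* and *Hrk* did not), of which 4 rose, 2 fell and 7 were not called, with a median log2 fold change of 0.01. These shares, 30.8% higher and 15.4% lower, stand beside 27.0 and 27.6% of all tested genes. Those that rose were *Bcl2a1b* (log2 fold change 1.31, uncertain because near-identical copies share its reads), *Bok* (0.71), *Bcl2l11* (0.61) and *Bid* (0.50), and those that fell were *Bik* (-0.39) and *Bcl2l2* (-0.30). On total counts 8 of 13 rose and none fell (50.7 and 14.0% of all tested genes), and *Bik* (-0.11) and *Bcl2l2* (-0.03) were lower without a call.

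Cell type markers also differed between the groups, beside every result above. Macrophage genes rose in 9 of 10 cases, with a summed level of 1137 to 1639 CPM in WT and 2660.0 to 2692 CPM in *Gpr174-/Y* libraries. Of 13 genes of myoblasts and regenerating fibres 9 rose and 1 fell, of 8 fibroblast genes 5 rose and 3 fell, and of 10 endothelial genes 1 rose and 9 fell. Of 8 neutrophil genes, 4 were abundant enough to test, 3 higher and 1 lower, with *Ly6g* at 0 in 5 of 6 libraries, and 0 of 6 tested T cell genes were called in edgeR (1 at an unadjusted p under 0.05, 0 in DESeq2, and 3 higher in limma on log2(TPM + 1)). The part of these cell types in the differences of the 10 genes was not tested.

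**Figure D5:**
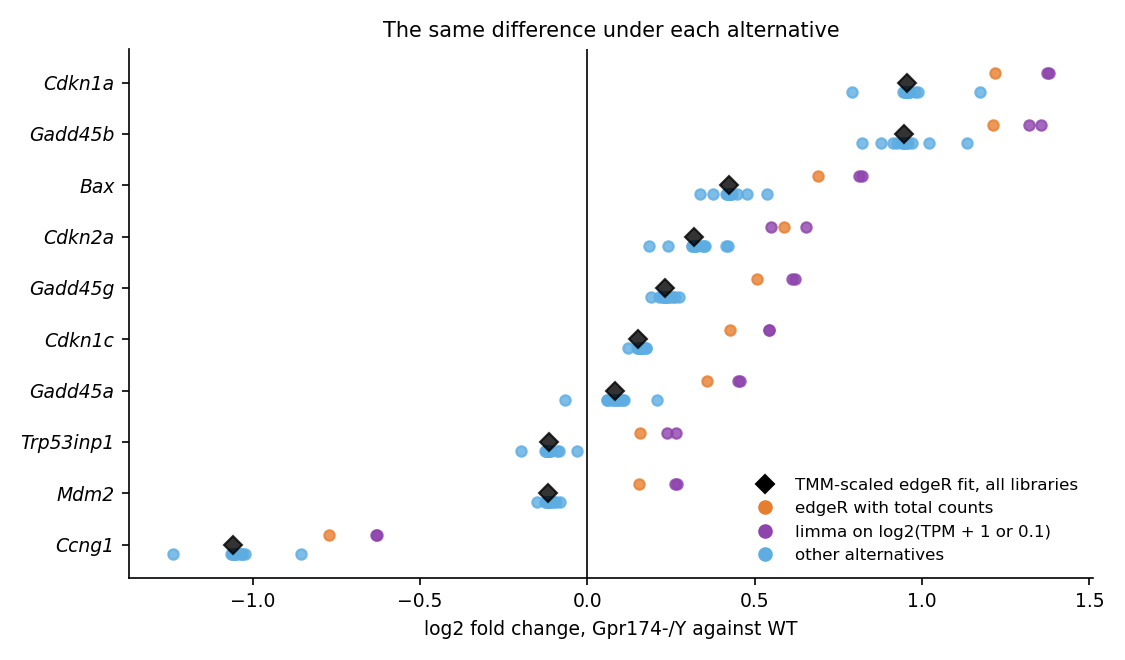
Log2 fold change of each of the 10 genes under the reported analysis and 16 alternatives (other scaling, filters, software and left-out libraries). Diamonds mark the reported fit, and total counts and the TPM scales lie to its right for every gene. *Cdkn1a* ranges from 0.79 to 1.38, *Gadd45b* from 0.82 to 1.35 and *Ccng1* from -1.24 to -0.63, each on its own side of 0, whereas *Mdm2*, *Trp53inp1* and *Gadd45a* cross 0.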

How the data were processed

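RNA of 6 gastrocnemius muscles had been sequenced on a BGISEQ instrument. Per the submitters' processing notes, the tools were HISAT2 2.0.4, Bowtie2 2.2.5 and RSEM 1.2.12 and the genome build GRCm39, and strand use is not given in the sources used here. The authors deposited, for 58843 transcripts in each library, an expected count (estimated reads, not normalized), a TPM and an FPKM value. FPKM was not used. Totals per library ran from 18417077 to 19394469 counts.

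The expected counts of a gene's transcripts were added up and rounded to a whole number. Groups came from the sample labels. Genes were compared with edgeR 4.0.16 (TMM, filterByExpr, robust quasi-likelihood F-test, Benjamini-Hochberg adjustment over 14395 genes) in R 4.3.3. The study's thresholds, 0.05 and an absolute log2 fold change of 1, were kept. Its tool, DEGseq, was replaced by edgeR to use the replicate spread. The common dispersion was 0.00967. Alternatives were other scalings and filters, DESeq2 1.42.0, limma 3.58.1 on log2(TPM + 1) and log2(TPM + 0.1), a replicate block and left-out libraries. Scripts used Python 3.11.15.

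The members and lists were chosen with earlier results of these data known. Named genes are all 10 members, *Trp53*, *Gpr174*, and up to 4 called genes per list and direction with at least 1 CPM and the largest log2 fold change. In GENCODE M21, *Bax*, *Cdkn1a*, *Cdkn1c* and *Gadd45a* each overlap a gene that has no row of its own in the table. For *Bax* that gene is on the same strand, and reads of the pair could not be told apart. For *Cdkn1a*, *Cdkn1c* and *Gadd45a* it is on the opposite strand. Whether those reads were kept apart is not known, since strand use is not given. Sequences are from RefSeq on GRCm38.p6, not on the build of the counts.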

Additional observations from a re-analysis of the deposited data

How the results depend on the processing

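Over 16 alternatives, *Cdkn1a*, *Gadd45b* and *Ccng1* kept their direction in all and passed in 15, all but the fit with replicates 1 and 3 alone, while *Bax* and *Gadd45g* passed in 11. Of 160 values of single genes, 129 kept direction and side of the threshold, and 7 changed sign. Of the others, which kept direction, 13 fell below the threshold and 11 rose past it. Among the 7, *Mdm2* also passed as higher in limma on log2(TPM + 1) and log2(TPM + 0.1) (limma adjusted p = 0.0105 and 0.0107). Signs changed for *Mdm2* (0.15 on total counts, 0.26 and 0.27 in limma on log2(TPM + 1) and log2(TPM + 0.1)), *Trp53inp1* (0.16, 0.24 and 0.27) and *Gadd45a* (-0.066 without *Gpr174-/Y* replicate 3, and up to 0.21 when other single libraries were left out). Total counts moved the median log2 fold change of all genes by 0.27, and the TPM scales by 0.35 and 0.39. The split of all calls was then 7303 higher and 2010 lower on total counts, 8385 and 1394 in limma on log2(TPM + 1), and 8353 and 1382 on log2(TPM + 0.1), against 3891 and 3972 as reported.

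In limma on either TPM scale, 9 of the 10 genes passed (5 as reported), beside 73.0 and 72.7% of all genes, and 18 G1 genes (10) and 10 Bcl2 family genes (6) passed. Past the fold threshold were 2 genes on these scales and on total counts, *Cdkn1a* and *Gadd45b*, both higher. *Ccng1*, the 1 gene past it as reported, was no longer among them, at -0.63 in limma on both TPM scales and -0.77 on total counts. Of all tested genes, 8.32% were past it on log2(TPM + 1), 12.2% on log2(TPM + 0.1) and 10.4% on total counts. Those past it as higher were 7.20, 10.7 and 7.95%, against 3.45% as reported. With replicates 1 and 3 alone, 0 passed in edgeR in every list and 0 past the fold threshold, and 0 of all genes (7863 as reported, 5026 at an unadjusted p under 0.05). Leaving out single libraries gave 5457 to 9165 calls over all genes (37.5 to 62.8%) and 3 to 6 over the 10 genes (3 without WT replicate 2, *Gpr174-/Y* replicate 1 or *Gpr174-/Y* replicate 2). Past the fold threshold were 0 to 3 of the 10, with 0 without WT replicate 1 (6.34% of all tested genes) and 3 without WT replicate 3 (12.5%). The same fits called 11 to 26 of the other p53 pathway genes (19 as reported, 11 without WT replicate 2), 7 to 14 of the G1 genes and 4 to 6 of the Bcl2 family. These fits with left-out libraries held fewer samples, and the cause of the changes in calls was not tested.

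Same-numbered libraries did not deviate together (correlations of 0.00803, 0.0501 and 0.00508 over 9972 genes), so numbers were not taken as pairs. With a replicate block, 6812 genes (47.3%) and 4 of the 10 were called, *Bax* being lost (log2 fold change 0.43, edgeR adjusted p = 0.0502). *Cdkn2a*, the gene with the fewest reads of the 10, had at most 57 counts in a library, and what depth did to its call was not tested.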
